A study of Mus musculus with 48 samples.

Results

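The neurotrophin and GDNF ligands and receptors described here are 9 genes: the ligands Bdnf, Ntf3 and Gdnf, and the receptor components Ntrk2, Ntrk3, Ngfr, Ret, Gfra1 and Gfra2. They were taken by name from the 37620 genes of the deposited table, and 108 of the 247845 rows of the exon table belong to them. The genes lie on chromosomes 2 (Bdnf), 6 (Ntf3 and Ret), 15 (Gdnf), 13 (Ntrk2), 7 (Ntrk3), 11 (Ngfr), 19 (Gfra1) and 14 (Gfra2). Messenger RNA of the nucleus accumbens shell, a ventral striatal region of the reward circuit, was measured in 48 mice of the heterogeneous stock-collaborative cross (HS-CC), an outbred mouse stock. The mice came from selection generation 4 for high or low ethanol preference. They formed 4 groups of 12: High F, High M, Low F and Low M, where High and Low are the selected lines and F and M the labelled genders. No treatment and no age was labelled, and all groups share the stock, the laser-microdissected tissue and the poly(A) library protocol. Since each line is a single population, a p-value here reflects only variation among the sampled mice, and selection cannot be told apart from drift. The labels give no family or litter.

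Neurotrophins are secreted growth factors that act through 2 kinds of receptor: the Trk kinases and p75NTR (Ngfr), a receptor without a kinase that binds all of them. BDNF acts mainly on TrkB (Ntrk2) and neurotrophin-3 (Ntf3) mainly on TrkC (Ntrk3). Both Trk genes also make truncated receptors that bind ligand but lack the kinase, and in brain the truncated TrkB named T1 is the main form in astrocytes. GDNF family ligands bind a lipid-anchored co-receptor, GFRα1 (Gfra1) for GDNF and GFRα2 (Gfra2) for neurturin, and the complex engages the kinase Ret. In the striatum BDNF protein is supplied largely by cortical axons, and GDNF is made mainly by parvalbumin interneurons.

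The truncated and full-length Trk transcripts part at a splice junction in the cytoplasmic region, and the sequences on either side of it define the exon rows counted below. Each line gives, 5′ to 3′ in GENCODE M21 (GRCm38), the last 30 shared coding bases in lower case and the first bases of the transcript's own coding sequence in capitals. For Ntrk2, on the plus strand of chromosome 13, the shared bases are the same in the 3 transcripts. For Ntrk3, on the minus strand of chromosome 7, they are the same in both.
Ntrk2-202, truncated, capitals at chr13:58932023-58932060: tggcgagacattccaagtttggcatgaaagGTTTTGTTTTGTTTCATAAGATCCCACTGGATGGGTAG
Ntrk2-208, truncated, capitals at chr13:58887192-58887199: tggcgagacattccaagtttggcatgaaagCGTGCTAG
Ntrk2-201, full-length, capitals at chr13:58985802-58985861: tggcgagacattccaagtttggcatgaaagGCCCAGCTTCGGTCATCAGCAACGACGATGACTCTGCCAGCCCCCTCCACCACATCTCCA
Ntrk3-202, truncated, capitals at chr7:78304367-78304426: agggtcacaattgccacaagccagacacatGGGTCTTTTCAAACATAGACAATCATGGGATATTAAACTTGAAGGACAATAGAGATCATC
Ntrk3-201, full-length, capitals at chr7:78260355-78260414: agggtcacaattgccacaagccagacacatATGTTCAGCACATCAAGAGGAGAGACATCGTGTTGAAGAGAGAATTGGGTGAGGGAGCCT
The own coding sequence of Ntrk2-202 ends after 38 bases, stop codon included, and that of Ntrk2-208 after 8. Their coding lengths were 476 and 466 codons, against 821 for the full-length Ntrk2-201. The truncated Ntrk3-202 coded for 612 codons and the full-length Ntrk3-201 for 825. The Ntrk2 isoforms thus differ by a few codons at the truncated end and by the whole kinase domain at the other.

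The deposited values are normalized read counts, rounded by the authors; column totals ran from 13579559 to 14561911 per library. The depth before normalization is unknown, so no counting interval is attached. Tissue markers were present in every library: the 9 markers shared by spiny projection neurons summed to 74624 to 122720, and 7 shell-enriched genes to 11088 to 21856. Cortical pyramidal markers, which the dissection could include, summed to 271 to 5515 over 7 genes, with Slc17a7 at 2 to 3886 and Neurod6 at 0 to 241. The library of High M mouse 1 had the lowest median correlation to the other libraries, 0.967, and the next lowest was 0.971 in Low M mouse 10. Mouse numbers follow the order of listing within a group and serve only as names.

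The receptors covered a wide range of levels and the neurotrophin ligands were close to 0. Per gene, in normalized counts over the 48 mice, the mean was 4418 for Ntrk2, 636 for Ntrk3, 616 for Gfra1, 195 for Gfra2, 61.8 for Ret, 56.0 for Gdnf, 7.23 for Bdnf, 6.15 for Ngfr and 1.85 for Ntf3. Levels of different genes can be compared only per length. Per kilobase of annotated exon the order of the levels was Ntrk2 at 229, Gfra1 at 112, Gfra2 at 55.2, Ntrk3 at 21.1, Gdnf at 15.2, Ret at 9.14, Ngfr at 1.78, Bdnf at 1.16 and Ntf3 at 1.08. The last 3 differ by less than their spread between mice, and so do the neighbours Ntrk3 and Gdnf. These lengths take every exon annotated to the gene and poly(A) libraries favour 3′ ends, so the per-length levels are approximate. For Ntrk3 the 30170 bases counted include an annotated last exon of 16786 bases. The row in that exon averaged 7.92, but its listed start lies inside the exon. On the minus strand this start is the row's 3′ end, so bases further 3′ are not counted in it. Taking the whole exon into the length lowers the per-length level and rank of Ntrk3. In 6 of the 9 genes the level reached 14.06 normalized counts, which is 1 ppm of the mean column total, in at least 12 libraries. Bdnf, Ngfr and Ntf3 did not pass this filter, and their tests come from a fit with no low-value filter.

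**Figure D1:**
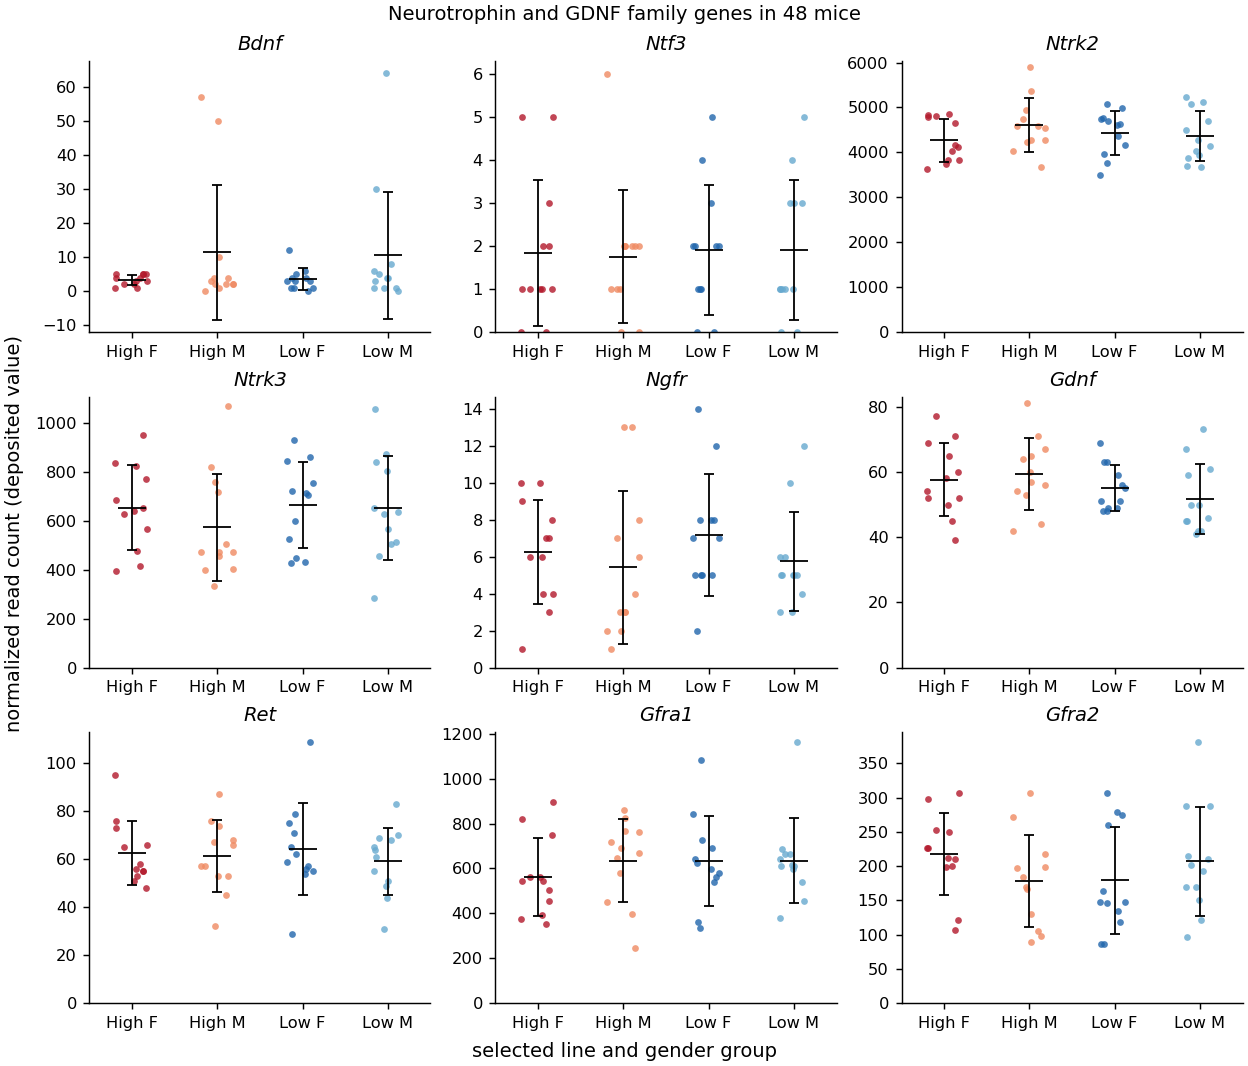
Normalized read count (y axis, linear, 1 panel per gene with its own scale) in the 4 groups of 12 mice; points are mice, and bars give the mean and SD. The groups overlap in every panel, and the Bdnf panel holds 4 M mice at 30 to 64 while the other 44 mice lie at 0 to 12.

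Bdnf, the main ligand of TrkB, was nearly absent in most mice. It lay at 1 to 5 in High F (median 3.5), 0 to 57 in High M (median 2.5), 0 to 12 in Low F (median 3) and 0 to 64 in Low M (median 4). Of the 48 mice, 3 had 0. The high values came from 4 mice: 64 in Low M mouse 6, 57 in High M mouse 10, 50 in High M mouse 1 and 30 in Low M mouse 8. All 4 were M, with 2 in each line. The High minus Low difference on the log2(value + 0.5 ppm) scale was 0.00 ± 0.21 (SE, 24 mice per line; limma adjusted p = 1). F minus M was -0.37 ± 0.21, with a limma adjusted p of 0.875 and an unadjusted p of 0.0947.

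The same 4 mice had the highest summed level of cortical pyramidal markers. Slc17a7, the vesicular glutamate transporter of cortical neurons, stood at 3886 in Low M mouse 6, 1626 in High M mouse 1, 1387 in High M mouse 10 and 961 in Low M mouse 8. The 7 markers summed to 5515, 2523, 2136 and 1656 in those mice. In the other 44 mice Slc17a7 ranged from 2 to 862 with a median of 14.5, the sum from 271 to 1323, and Bdnf from 0 to 12 with a median of 3.

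Across the 48 mice, with each group centred on its mean, log2 Bdnf and the log2 marker sum had a Pearson r of 0.85 (permutation p = 2e-05) and a Spearman rho of 0.53 (permutation p = 0.00112). Without the 4 mice the r over 44 mice was 0.33 (permutation p = 0.0481) and the rho 0.20 (permutation p = 0.208), so the relation rests largely on these 4 libraries. In those 44 mice the marker sum had a median of 443.5 and Slc17a7 one of 14.5. The sum there thus reflects mostly the other markers. Whether the Bdnf reads came from cortical cells was not tested. In bulk samples like these, fewer cells of a type and less RNA per cell cannot be told apart. The Bdnf exon rows gave little on promoter use: 95.4% of the reads fell in the last row, which holds the coding sequence, and the 8 upstream rows, mostly alternative first exons, averaged 0 to 0.104.

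**Figure D2:**
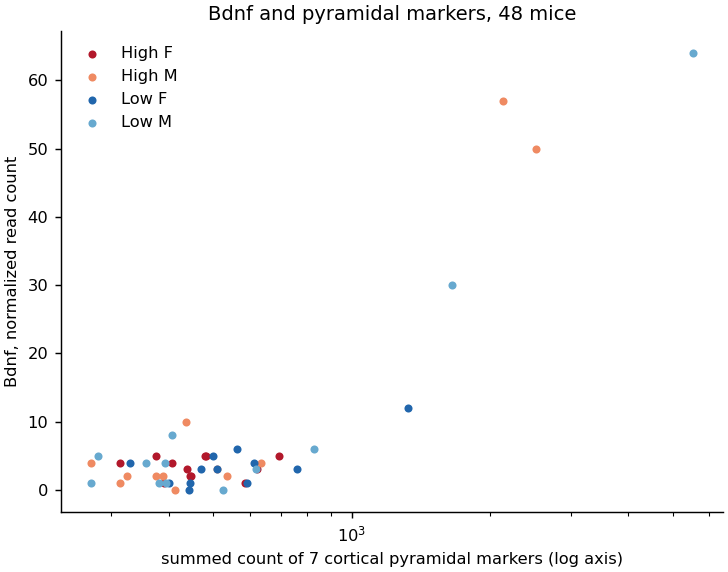
Bdnf normalized read count (y axis, linear) against the summed normalized count of 7 cortical pyramidal markers (x axis, log) in each of the 48 mice, coloured by group. The 4 mice with Bdnf at 30 to 64 are also the 4 farthest right, at sums of 1656 to 5515.

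Ntf3, the preferred ligand of TrkC, never exceeded 6. It ranged from 0 to 5 in High F, 0 to 6 in High M, 0 to 5 in Low F and 0 to 5 in Low M, and 8 of the 48 mice had 0. Its log2 difference was -0.02 ± 0.07 between lines (limma adjusted p = 0.949) and 0.01 ± 0.07 between genders (adjusted p = 1). Ngfr, encoding p75NTR, ranged from 1 to 10 in High F, 1 to 13 in High M, 2 to 14 in Low F and 3 to 12 in Low M. Its log2 difference was -0.09 ± 0.10 between lines (limma adjusted p = 0.802) and 0.13 ± 0.10 between genders (adjusted p = 0.875). In that fit without a filter, 0.111% of the 28770 genes were called by line and 0.0452% by gender. None of the 3 low genes was called by line or gender or had an unadjusted p under 0.05. At these levels a moderate difference was not detectable.

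Gdnf was the most even of the GDNF family members. It ranged from 39 to 77 in High F (median 56), 42 to 81 in High M (median 58.5), 48 to 69 in Low F (median 53) and 41 to 73 in Low M (median 48). The mean was 58.6 ± 10.9 (SD, 24 mice) in the High line and 53.4 ± 9.01 in the Low line. The log2 difference of 0.11 ± 0.07 (95% confidence interval -0.03 to 0.25) had an unadjusted p of 0.107 and a limma adjusted p of 0.656. It was the smallest line p among the 9 genes, and the ranges of the lines overlapped. Among M alone the difference was 0.18 ± 0.10 (unadjusted p = 0.0711, limma adjusted p = 0.753), and among F 0.05 ± 0.10. Reads of Gdnf lay almost wholly (98.9%) in its last exon row.

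Ret, the kinase subunit shared by the GDNF family receptors, ranged from 48 to 95 in High F, 32 to 87 in High M, 29 to 109 in Low F and 31 to 83 in Low M, with medians of 57, 61.5, 60.5 and 62.5. The line difference was 0.02 ± 0.10 (limma adjusted p = 0.981). Gfra1, the co-receptor for GDNF, spread widely within each group: 351 to 894 in High F, 245 to 862 in High M, 335 to 1084 in Low F and 377 to 1162 in Low M. The medians of Gfra1 were 542.5, 679.5, 611.5 and 613.5, and the line difference was -0.09 ± 0.12 (limma adjusted p = 0.880). Of the Gfra1 reads, 92.0% lay in the last exon row.

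Gfra2, the co-receptor for neurturin, had the largest line by gender interaction of the 6 members that passed the filter, without passing the test. It ranged from 106 to 307 in High F, 89 to 306 in High M, 86 to 306 in Low F and 97 to 381 in Low M. The means were 217 ± 59.9 and 178 ± 67.2 (SD, 12 mice each) in High F and High M, and 179 ± 78.5 and 207 ± 79.0 in Low F and Low M. High minus Low was 0.33 ± 0.21 among F and -0.21 ± 0.21 among M. The difference of these, the line by gender interaction, was 0.54 ± 0.30 (95% confidence interval -0.05 to 1.14), with an unadjusted p of 0.0715 and a limma adjusted p of 1.00. The 4 ranges overlapped.

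Ntrk2, encoding TrkB, was the highest member and varied least. It ranged from 3631 to 4853 in High F (median 4142.5), 3678 to 5912 in High M (median 4565.5), 3499 to 5086 in Low F (median 4617) and 3686 to 5223 in Low M (median 4214.5). High mice averaged 4437 ± 556 (SD, 24 mice) and Low mice 4399 ± 517. The log2 difference was 0.01 ± 0.05, with a 95% confidence interval of -0.09 to 0.11 and a limma adjusted p of 0.973. Ntrk3, encoding TrkC, was less even: 396 to 949 in High F (median 647), 335 to 1068 in High M (median 473.5), 426 to 931 in Low F (median 708.5) and 284 to 1057 in Low M (median 631). Its line difference was -0.10 ± 0.12 (95% confidence interval -0.35 to 0.15, limma adjusted p = 0.868), and F minus M was 0.14 ± 0.12 (limma adjusted p = 0.982).

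Across all comparisons limma called none of the 6 members that passed the filter. Over the 15350 genes tested, 0.28% were called by line, 0.0782% by gender, 0% for the interaction, 0.0261% by line among F, 0% by line among M and 0.0586% for a difference of variability between the lines. Against so small a background, 0 of 6 is no result about the members. At an unadjusted p under 0.05, 9.07% of all genes passed by line, 4.21% by gender and 2.4% for the interaction, and none of the 6 members passed any of these. Of 11 oligodendrocyte markers, 8 were lower in High mice at an unadjusted limma p under 0.05, with none called. Of 4 somatostatin and NPY interneuron markers, 1 was called lower (Sst, -0.40, limma adjusted p = 0.0233). Neither list was tested as a whole. The part of these markers in the members' values was not tested.

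The spread between mice within a group separated the members more clearly than line or gender did. The within-group SD on the log2 scale was 0.53 for Gfra2, 0.45 for Gfra1, 0.45 for Ntrk3, 0.34 for Ret, 0.23 for Gdnf and 0.17 for Ntrk2, beside a median of 0.23 over all tested genes. Set against the 500 genes nearest in level, Gfra2 lay at the 94.8th percentile, Gfra1 at the 96.0th and Ntrk3 at the 96.4th. Ret and Ntrk2 lay near the middle, at the 51.6th and 51.8th, and Gdnf low, at the 7.00th. The co-receptors Gfra1 and Gfra2 had a wider spread in these libraries than Ret and Gdnf. These differences in spread were not tested.

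The Ntrk2 exon rows were described next, because the gene value sums receptors with and without a kinase. The 12 rows shared by truncated and full-length transcripts summed to 1036 on average, of which the last one held 169. The truncated transcripts were counted by 2 rows: the row starting at mm9 position 59033384 (Ntrk2-202) averaged 1496, and the row at 58988553 (Ntrk2-208) averaged 168. Full-length transcripts had 6 rows of their own past the junction. One further row at the 5′ end of the gene, at 58907957, averaged 1.33 and was left out of the sums. The 5 internal ones, at 59087163, 59139328, 59155654, 59161589 and 59227794, averaged 12.3, 12.0, 14.3, 18.7 and 14.6. The last one, at 59229529, averaged 1644 and lies mostly beyond the stop codon.

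Summed, the truncated rows held 1664 ± 218 (SD, 48 mice) and the full-length rows 1716 ± 259, but the internal full-length rows alone held only 71.9 ± 35.8, or 14.4 per row. The 5 internal rows ranged from 27 to 215 between mice, while the truncated sum ranged from 1256 to 1986. Both large rows are long terminal exons, so their near-equal sums do not measure the molar ratio of the isoforms. The plot of reads by exon row shows the drop from the shared rows to the internal full-length rows.

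**Figure D3:**
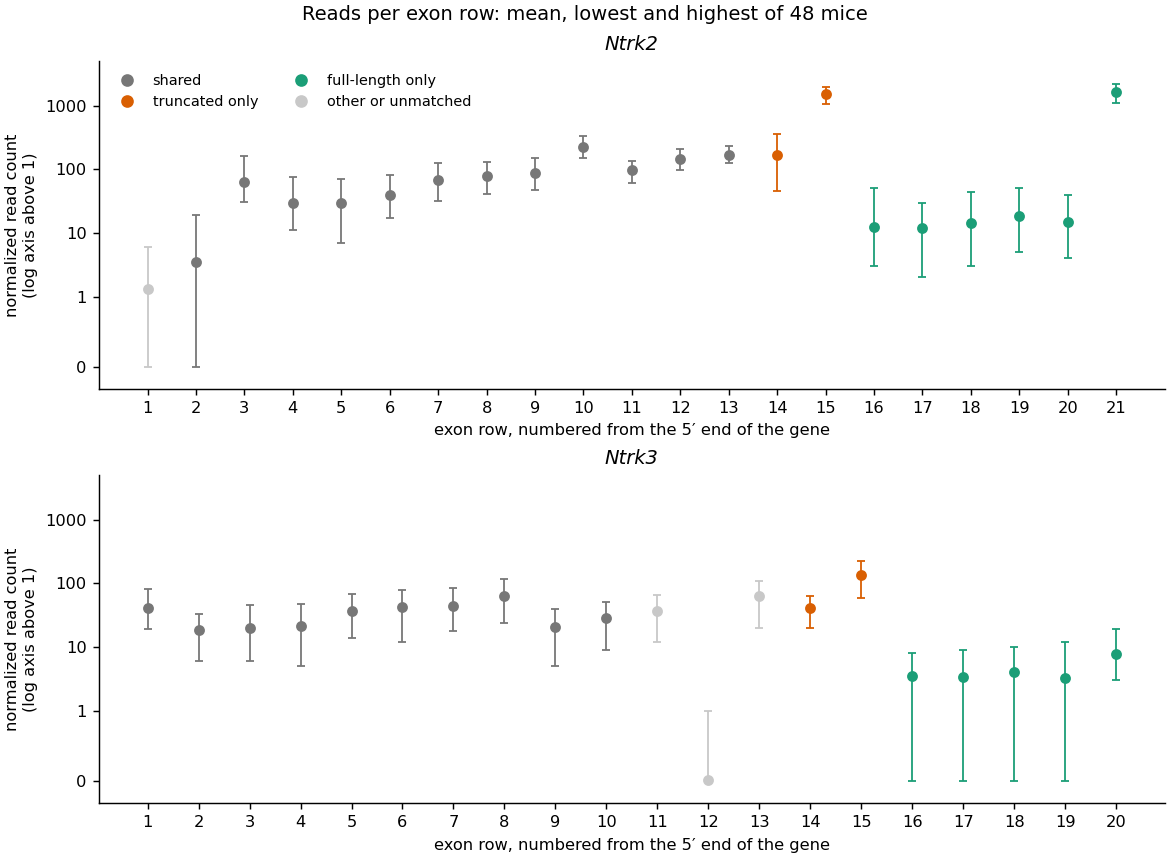
Normalized read count per exon row (y axis, log above 1) by row number from the 5′ end of the gene (x axis) for Ntrk2 and Ntrk3; points are means over 48 mice, bars run from the lowest to the highest mouse, and colours mark rows of truncated, full-length or both kinds of transcript, with other rows in light grey. In Ntrk2 the internal full-length rows average 12.0 to 18.7 while the last shared row averages 169, and in Ntrk3 they average 3.27 to 4.13.

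The truncated sum of Ntrk2 ranged from 1340 to 1924 in High F, 1296 to 1986 in High M, 1316 to 1960 in Low F and 1256 to 1927 in Low M, with medians of 1688.5, 1865, 1554.5 and 1600. The full-length sum ranged from 1137 to 1857, 1421 to 2419, 1407 to 2157 and 1321 to 2079 in the same order, with medians of 1684, 1689, 1712.5 and 1780. The truncated sum averaged 1725 ± 204 in High and 1604 ± 218 in Low mice (SD, 24 each), and the full-length sum 1679 ± 275 and 1753 ± 243. The ranges of the 4 groups overlapped in both sums.

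The log2 ratio of truncated to full-length reads of Ntrk2 averaged 0.05 ± 0.28 in High and -0.13 ± 0.26 in Low mice (SD, 24 each). The difference was 0.17 ± 0.08 (SE), and the Low median was exceeded by 18 of the 24 High mice. A two-sided permutation test within gender gave p = 0.0318, and p = 0.0823 after adjustment over the 4 ratio tests, so the difference did not pass. High minus Low was 0.21 among F (permutation p = 0.0536) and 0.14 among M (permutation p = 0.255). Between genders the ratio differed by -0.01 (permutation p = 0.930).

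With the last full-length row left out, the line difference of the ratio fell to 0.08 (adjusted permutation p = 0.738). Without Low M mouse 1 it was 0.19, with an adjusted permutation p of 0.0458; no other single mouse brought it past 0.05. The ratio also moved with the share of reads that the last exon row took over all genes of a library, a measure of 3′ coverage that ran from 44.9% to 58.4%: r was 0.62 and rho 0.60 over 48 mice (adjusted permutation p = 8.5e-05 and 0.00051, 17 relations), and r was 0.59 without the 2 farthest mice. That share averaged 53.2% in High and 52.8% in Low mice (permutation p = 0.658), and with it as a covariate the line difference was 0.15 (adjusted permutation p = 0.0686).

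**Figure D4:**
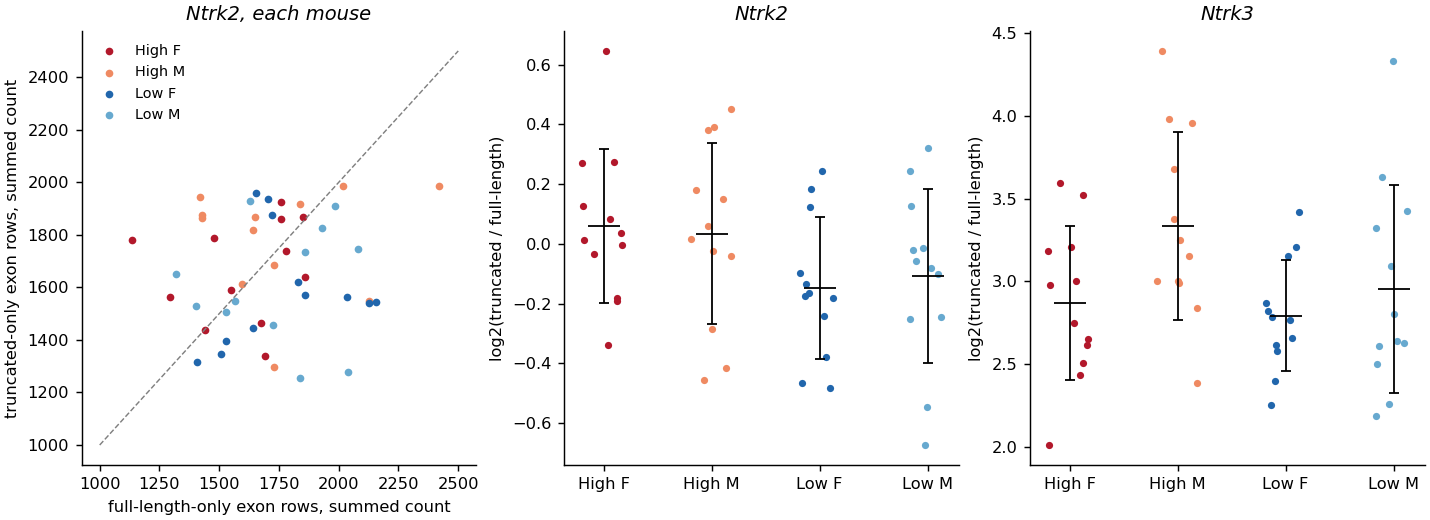
Left, summed normalized count of truncated-only rows of Ntrk2 (y axis) against full-length-only rows (x axis) in each mouse, with the line of equal counts dashed; middle and right, log2 ratio of truncated to full-length rows (y axis) by group for Ntrk2 and Ntrk3, with mean and SD of 12 mice. The Ntrk2 ratios average 0.06 and 0.03 in High F and High M and -0.15 and -0.11 in Low F and Low M, with overlapping points.

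In Ntrk3 most reads of the isoform rows were in the truncated rows. The 2 truncated rows, at mm9 positions 85449178 and 85447209, averaged 41.2 and 134. The 5 full-length rows, at 85405170, 85395587, 85392041, 85343679 and 85337248, averaged 3.56, 3.4, 4.13, 3.27 and 7.92. The listed start of the last of them lies inside an annotated exon, so on the minus strand this row stops short of the exon's 3′ end. As in Ntrk2, sums of these rows do not measure the molar ratio of the isoforms. The summed truncated rows ranged from 80 to 290 and the full-length rows from 5 to 45 over the 48 mice. A further 3 rows could not be given to either form, and one of these, at 85500911, averaged 63.3.

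The Ntrk3 log2 ratio of truncated to full-length reads averaged 3.10 ± 0.56 in High and 2.87 ± 0.50 in Low mice (SD, 24 each), a difference of 0.23 ± 0.15 (SE; permutation p = 0.130, adjusted 0.174). It averaged 2.83 ± 0.40 in F and 3.14 ± 0.62 in M mice; the difference of -0.31 ± 0.15 had a permutation p of 0.0411 and an adjusted p of 0.0823. The M median was exceeded by 7 of the 24 F mice. The full-length sum had its lowest median in High M, at 16 (range 5 to 23). It ranged from 15 to 40 in High F (median 23), 14 to 43 in Low F (median 26.5) and 10 to 45 in Low M (median 22.5). Low values thus also occurred in Low M. Without Low M mouse 1 the gender difference was -0.35 (adjusted permutation p = 0.0458), and with the last full-length row left out it was -0.26 (adjusted permutation p = 0.240).

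A test of exon usage over all genes, which asks whether an exon row departs from the other rows of its gene, called no member by line or gender. Of 14702 genes, 0.51% were called by line and 0.17% by gender, with limma's diffSplice and a Simes p per gene; of single exon rows, 0.0569% were called by line and 0.0687% by gender. Gene-level adjusted p-values were 0.997 for each of the 5 members with several tested rows by line. The row with the smallest line p was 85392041 in Ntrk3, a full-length row, at -0.41 log2 in High against Low relative to the gene's other rows (unadjusted p = 0.0300, limma adjusted p = 1). In Ntrk2 it was the truncated row 58988553, at 0.26 (unadjusted p = 0.146). In Gfra1, Gfra2 and Ret the smallest unadjusted p was 0.0934, 0.190 and 0.101, at rows 58338402, 71377063 and 118126196.

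Members were then set against markers of the cell types that the dissected tissue could hold, over the 48 mice with each group centred on its mean. Of 135 pairs of member and marker list, 5 passed an adjusted permutation p of 0.05 for Pearson's r. How many of all tested genes would pass with these lists was not computed. The pairs are therefore not shown to be particular to the members. Ntrk2 was higher in mice with higher astrocyte markers (12 genes, summed 29615 to 48032): r and rho were both 0.71, r was 0.66 without the 2 farthest mice, and the sign was the same in 4 of 4 groups (adjusted permutation p = 0.00045 for r). Ntrk3 went the other way with the same markers, with r = -0.74, rho = -0.73 and r = -0.73 without the 2 farthest mice, in 4 of 4 groups (adjusted permutation p = 0.00045). The raw p of both relations, 1e-05, is the smallest these permutations can give.

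The isoform rows of Ntrk2 were set against the same markers. The truncated rows had an r of 0.79 and a rho of 0.76 with the astrocyte markers (adjusted permutation p = 0.00024 over 120 relations), and r was 0.77 without the 2 farthest mice. The full-length rows had an r of 0.28 and a rho of 0.31 (adjusted permutation p = 0.232). The full-length rows rose with the cholinergic markers, at r = 0.63 and rho = 0.62, and r = 0.54 without the 2 farthest mice (adjusted permutation p = 0.00024). They also rose with oligodendrocyte precursor markers (r = 0.57, rho = 0.56, adjusted permutation p = 0.000857) and direct-pathway spiny neuron markers (r = 0.42, rho = 0.44, adjusted permutation p = 0.0443). The direct-pathway relation had the same sign in 3 of 4 groups, with r = -0.08 in Low M. Of the full-length sum, 1716 on average, the last row held 1644. The internal full-length rows alone were not set against the markers. The rows shared by both forms had an r of 0.63 with the cholinergic and 0.65 with the astrocyte markers, and the isoform ratio an r of -0.47 with the precursor markers (adjusted permutation p = 0.0138). The difference between these correlations was not tested, and the isoform relations were chosen after the gene values were seen.

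**Figure D5:**
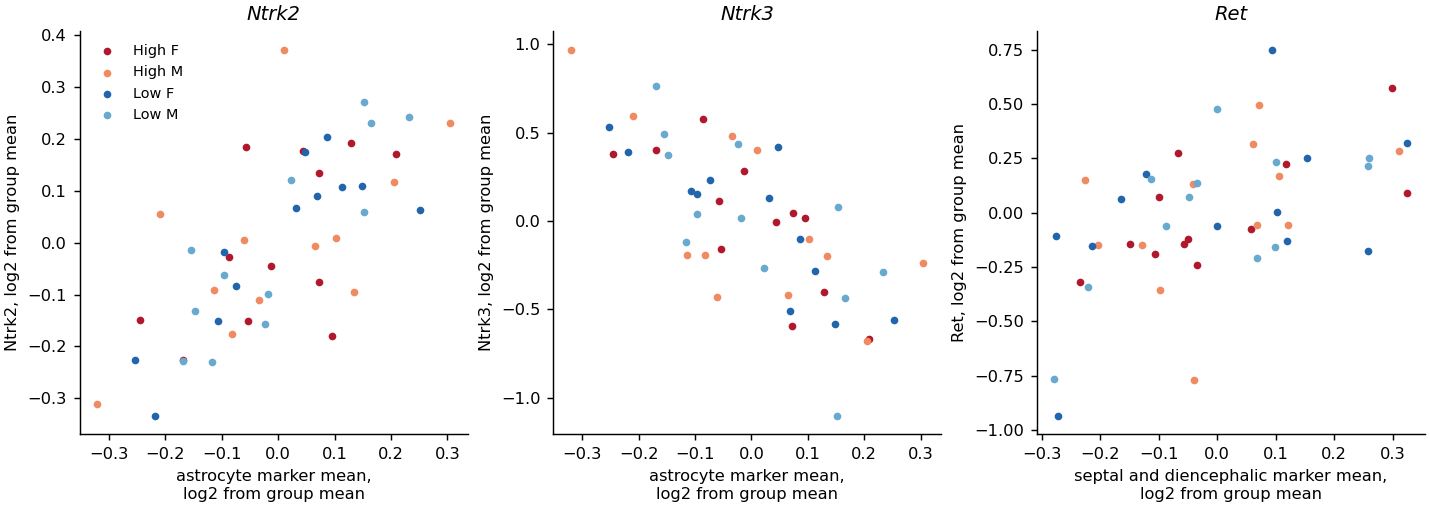
Log2 level of Ntrk2, Ntrk3 and Ret (y axes) against the mean log2 level of a marker list (x axes: astrocyte, astrocyte, septal and diencephalic), each as the distance from the mean of the mouse's group; points are the 48 mice. Ntrk2 rises with the astrocyte markers (r = 0.71), Ntrk3 falls (r = -0.74) and Ret rises with the septal and diencephalic markers (r = 0.53).

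The other 3 pairs were Bdnf with the pyramidal markers (r = 0.81 on the mean of the 2 tested markers, rho = 0.51), Ntrk2 with the cholinergic markers (r = 0.61, rho = 0.60, 4 of 4 groups; 4 of the 6 listed genes were measured) and Ret with septal and diencephalic markers. For Ret, r and rho were both 0.53, r was 0.51 without the 2 farthest mice, and the sign was the same in 4 of 4 groups (adjusted permutation p = 0.00297). The septal and diencephalic list summed to 350 to 569, and 5 of its 8 genes passed the filter. By Spearman's rho 3 further pairs passed whose r did not: Ntrk3 with the pyramidal markers (rho = 0.52, adjusted permutation p = 0.00351; r = 0.40), Bdnf with somatostatin and NPY interneuron markers (rho = 0.48, adjusted permutation p = 0.00517; r = 0.42) and Ntrk2 with oligodendrocyte precursor markers (rho = 0.44, adjusted permutation p = 0.0471; r = 0.42). Gdnf and the parvalbumin interneuron markers had an r of -0.14 and a rho of -0.17 (adjusted permutation p = 0.666), and 2 of 4 groups shared the sign.

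The 3′ coverage of the library moved with some of the same members. Against the last-exon share, r was -0.45 for Ntrk2 and -0.46 for Ntrk3 (adjusted permutation p = 0.0064 for each), and rho was -0.38 and -0.44. Without the 2 farthest mice r was -0.32 and -0.43. Ngfr had an r of -0.38 (adjusted permutation p = 0.028) and a rho of -0.36, and r was -0.20 without the 2 farthest mice. The other members, Bdnf, Ntf3, Gdnf, Ret, Gfra1 and Gfra2, did not pass, with r between -0.30 and 0.03. What share of all tested genes would pass was not computed, so these relations are not shown to be particular to the members. Within Ntrk2 the full-length rows had an r of -0.63 (rho = -0.55, adjusted permutation p = 8.5e-05 for r), the shared rows -0.55 (rho = -0.53, adjusted permutation p = 0.000567 for r) and the truncated rows 0.16 (adjusted permutation p = 0.345). The part of 3′ coverage in the relations of genes and isoform rows with marker lists was not tested.

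Among the 15 pairs of the 6 tested members, 2 passed an adjusted permutation p of 0.05 for Pearson's r. The share of all gene pairs that would pass was not computed, so these pairs are not shown to be particular to the members. Ntrk2 and Ntrk3 ran against each other, with r = -0.42 (adjusted permutation p = 0.0450) and rho = -0.42 (adjusted p = 0.0571), and r = -0.49 without the 2 farthest mice. Ntrk2 and Gfra1 rose together at r = 0.41 (adjusted permutation p = 0.0450) and rho = 0.30 (adjusted p = 0.104), with r = 0.46 without the 2 farthest mice. Gdnf and its co-receptor Gfra1 had an r of 0.35 (adjusted permutation p = 0.0697), and Gdnf and Ret an r of -0.02.

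The genes whose level followed each member most closely over the 48 mice, among 11861 genes at a mean of 5 ppm or more, are given as a description. Ntrk2 was nearest to Ckap5 (r = 0.89), Atp6v1b2 (0.89) and Uhmk1 (0.88), and Ntrk3 to Sidt2 (0.96), Ube2o (0.96) and Ptprs (0.94). Gfra1 was nearest to Gm16277 (0.79), Otud6b (0.64) and Hspa12a (0.63), and Gfra2 to 4930539E08Rik (0.72), Adgra1 (0.72) and Nrp2 (0.70). Gdnf followed Rnf220 (0.61), Mtrr (0.59) and Morn4 (0.58). Ret had the weakest neighbours, Efna5 (0.50), ENSMUSG00000090425 (0.49) and Tspan15 (0.48). Genes measured in the same library share its depth and 3′ coverage, and the part of these in the correlations was not tested.

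Besides the members, the 9 pathway lists held 99 genes, of which 88 passed the filter. None was called by line, gender or interaction in limma; at an unadjusted p under 0.05, 6 of 88 (6.82%) passed by line, beside 9.07% of all genes, and 5 of 88 by gender, beside 4.21%. Among other ligands, Nrtn (neurturin) averaged 21.0 normalized counts, Artn 11.4, Pspn 9.19, Gdf15 1.48 and Ntf5 0.10. Nrtn differed by -0.18 log2 between the lines (unadjusted p = 0.0967).

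Among the receptors, Sort1 (sortilin, a partner of p75NTR) averaged 3521 and differed by 0.11 (unadjusted p = 0.105). Ncam1, an alternative GDNF receptor, averaged 4253 and differed by 0.05 (unadjusted p = 0.137). Gfra3 averaged 0.27 and Gfral 0.50. Of the 6 tested proteases that cut pro-neurotrophins, Pcsk5 had the smallest line p (-0.19, unadjusted p = 0.0271, adjusted 0.451), followed by Pcsk7 (-0.09, unadjusted p = 0.258). Pcsk5 also had the smallest gender p of the pathway lists: it averaged 65.9 ± 15.9 in F and 84.9 ± 17.8 in M mice (SD, 24 each), a log2 difference of -0.34 with an unadjusted p of 0.000143 and a limma adjusted p of 0.146.

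The list named p75 adaptors, with 10 tested genes, held the smallest line p of the pathway lists. It was that of Tnfrsf19, which encodes TROY, itself a receptor of the TNF receptor family and not an adaptor. Tnfrsf19 averaged 527 ± 55.0 in High and 472 ± 42.1 in Low mice (SD, 24 each). The log2 difference was 0.16, with an unadjusted p of 0.000375 and a limma adjusted p of 0.0818. Irak1 was next in that list (-0.06, unadjusted p = 0.476). Among 25 adaptors and scaffolds the ubiquitin ligase Cbl (-0.36, unadjusted p = 0.0354) and the docking protein Gab2 (0.18, unadjusted p = 0.0381) had the smallest p-values.

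Among 22 kinases of the ERK and PI3K branches the smallest were Nras (0.12, unadjusted p = 0.0101) and Rps6ka1 (-0.19, unadjusted p = 0.0137). Of the ERK feedback and neurotrophin-induced genes, 13 of 15 had a line difference above 0, beside 48.5% of all genes, and their median was 0.06 beside 0.00. The list as a whole was not tested, and none of its genes had an unadjusted line p under 0.05. Dusp5, a phosphatase acting on ERK, differed by 0.15 (unadjusted p = 0.107) and Spry2, a feedback inhibitor of receptor kinases, by 0.10 (unadjusted p = 0.113).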

How the data were processed

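Gene and exon values were used as deposited: a score, that is, whole numbers to which the authors rounded read counts after normalizing them, per the file headers. The submitters' processing notes name edgeR 3.4.2, R 3.0.2, STAR 2.4.0, FastQC and CASAVA, and the build mm9, without saying what each did; counter, strand setting, annotation and normalization method are not given in the sources used here. Sense and antisense reads of overlapping genes cannot be told apart. Libraries were poly(A)-selected, per the labels' protocols. All 48 columns matched a library.

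From these values limma 3.58.1 (R 4.3.3) fitted log2(value + 0.5 ppm) with 4 group means over all 48 libraries, keeping the 15350 genes that reached 1 ppm in 12 or more libraries, with Benjamini-Hochberg adjustment and a threshold of 0.05. Fold changes on this scale understate those of low genes. Exon usage was tested with limma's diffSplice (pseudocount 0.05 ppm, filter 0.1 ppm). Isoform ratios were tested by permuting the line within gender or the gender within line, and correlations by permuting within the 4 groups, all two-sided (100000 resamples; 20000 for the ratios with 1 mouse left out and the marker alternatives; Python 3.11.15, numpy 2.4.6). The tests were checked on simulated data.

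Exon rows carry only a start on mm9, so they were matched to GENCODE M21 by the spacing of starts within a gene, in place of the planned match on exon length: 96 of the 108 member rows matched, 6 lay within an annotated exon and 6 did not match. Symbols came from GENCODE M21 for 32897 genes. No position was converted between builds.

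The members and lists were chosen with earlier results of these data known. Named were all 9 members, the 3 genes with the highest r to each tested member, the 2 genes of each list with the smallest line p, the row with the smallest line p per member and all isoform rows. Some listed genes are not reported here. Other listed ligands and receptors, the gender value of Pcsk5 and Sst were named after their values were seen. Alternatives were the pseudocount, filter, scaling, library weights, pyramidal covariate, exon summaries and each library left out.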

Additional observations from a re-analysis of the deposited data

How the results depend on the processing

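No member was called by line, gender or exon usage under any alternative run. Counts over all genes moved most: the 43 line calls became 80 with library weights and 18 without the 4 libraries highest in pyramidal markers, an alternative added after seeing the data. Variability calls went from 9 to 15 with no filter and to 5 with a filter of 5 ppm, and line calls among F from 4 to 2 with no filter and 7 with library weights. Genes called for exon usage fell from 75 by line to 31 at a pseudocount of 0.5 ppm and 20 at an exon filter of 1 ppm, and from 25 by gender to 10 and 9. The causes were not tested.

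Differences near 0 changed sign: Ntrk2 by line was -0.0054 without High M mouse 1 and -0.0068 without those 4 libraries, Gfra2 by gender was -0.013 with library weights, and the Ntrk2 isoform ratio by gender was 0.0058 with the last-exon share as a covariate. With each library left out in turn, the line difference ran from -0.0054 to 0.026 for Ntrk2 and from -0.025 to 0.052 for Ret, the Ntrk2 isoform ratio from 0.15 to 0.20 by line and from -0.034 to 0.013 by gender, and the Ntrk3 isoform ratio from -0.35 to -0.25 by gender. The line calls over all genes ran from 30 to 58. No paired analysis was possible because the labels number each library separately and pair no mice. Low counts limit Bdnf, Ngfr, Ntf3 and the full-length rows of Ntrk3, where a few reads set a value.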
